A study of Mus musculus with 6 samples.

Results

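Processed pseudogenes are copies of messenger RNAs that were reverse transcribed and inserted back into the genome, so they usually lack the introns and the promoter of the gene they came from, here called the parent. They are most numerous for genes that are highly expressed in the germline, such as those of ribosomal proteins and glycolytic enzymes, and most have gathered stop codons and frame shifts. The 154 described here were selected on their estimated counts: a GENCODE M21 gene of type processed_pseudogene (148 of them) or transcribed_processed_pseudogene (6 of them), with fewer than 10 counts in all over the 3 libraries of MS-5 cells cultured alone and at least 20 counts in each of the 3 co-culture libraries. They are 1.50% of the 10236 processed pseudogenes, and the deposited files cover 35968 genes of the annotation. Because the counts of both groups chose them, their difference between the groups is given as a description with no test.

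RNA-seq was done on MS-5, a mouse bone marrow stromal line, cultured alone (MO1, MO2 and MO3) or for 24 hr with SKM-1, a human acute myeloid leukaemia (AML) line (MC1, MC2 and MC3). SKM-1 cells were plated at 750000 per ml, 4 to each stromal cell, and RNA came from the stromal fraction, which was given a rinse and a dilute trypsin step aimed at SKM-1 cells still on it. Every transcript in the deposited files is a mouse transcript. Library totals ranged from 23978881 to 35694987 estimated counts, and nothing in the labels says that the libraries of a group came from separate cultures, so that p-values measure only the spread between these libraries. Of 15 stromal marker genes, Col1a1, Fn1, Sparc, Acta2 and Cxcl12 were the most abundant. Acta2 had a log2 fold change of -0.88 and an edgeR adjusted p of 0.676. The summed level of all 15 ranged from 10863 to 11297 CPM (counts scaled to a fixed library size after TMM normalization) in MS-5 only and from 12211 to 13210 in co-culture, and Lum and Dcn had at most 2 counts in any library.

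To show what separates a copy from its parent, 7 of the copies are set out below, each as a window of 60 bases beside the coding sequence it aligns to. The window shown is the one with the most differences among those that align without a gap. Capitals mark the bases at which the pseudogene and the parent differ, and all positions are on GRCm38. The sequences are GENCODE M21 transcripts, written 5′ to 3′ as transcribed. Gmfg-ps was shown as a member with no count in MS-5 only whose parent is a leukocyte gene, and the other 6 because they had the highest levels in co-culture. By the annotation 6 of the 7 lie between genes, and Gm37116 lies in an intron of Gm38392 on the same strand.

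The window of Gmfg-ps (chr6:4893451-4893510, minus strand) matched the junction of exons 5 and 6 of Gmfg (chr7:28444923-28445963, plus strand), at bases 271 to 330 of its coding sequence, with 2 differences. Gmfg encodes glia maturation factor gamma, a regulator of branched actin that is abundant in leukocytes.
Gmfg-ps: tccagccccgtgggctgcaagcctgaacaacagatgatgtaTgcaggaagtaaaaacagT
Gmfg: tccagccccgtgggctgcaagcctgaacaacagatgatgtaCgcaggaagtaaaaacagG

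The windows of Gm8942 (chr10:115270241-115270300, plus strand), Gm37116 (chr3:88284650-88284709, minus strand) and Gm7312 (chrX:156679390-156679449, minus strand) likewise run without a break over a place where the parent has an intron. That of Gm8942 matched the junction of exons 3 and 4 of Rps24 (chr14:24492103-24493428, plus strand), at bases 266 to 325 of its coding sequence, with 3 differences. That of Gm37116 matched the junction of exons 2 and 3 of Rpl39 (chrX:37082747-37084041, minus strand), at bases 51 to 110 of its coding sequence, with 5 differences. That of Gm7312 matched the junction of exons 3 and 4 of Rpl23a (chr11:78181194-78181446, minus strand), at bases 357 to 416 of its coding sequence, with 8 differences. All 3 parents encode ribosomal proteins.
Gm8942: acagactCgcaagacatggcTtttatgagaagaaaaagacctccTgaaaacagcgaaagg
Rps24: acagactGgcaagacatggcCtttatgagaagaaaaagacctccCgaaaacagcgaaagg
Gm37116: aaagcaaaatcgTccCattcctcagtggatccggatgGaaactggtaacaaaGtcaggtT
Rpl39: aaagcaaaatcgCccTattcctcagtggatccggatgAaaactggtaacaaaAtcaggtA
Gm7312: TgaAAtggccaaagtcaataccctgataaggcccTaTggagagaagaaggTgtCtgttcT
Rpl23a: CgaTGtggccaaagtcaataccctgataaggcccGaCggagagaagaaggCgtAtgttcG

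The other windows lie within an exon of the parent. That of Gm11814 (chr4:10439133-10439192, minus strand) matched exon 6 of Ldha (chr7:46851888-46851947, plus strand), at bases 604 to 663 of its coding sequence, with 8 differences. Ldha encodes a subunit of lactate dehydrogenase. That of Rpl12-ps2 (chr11:20290215-20290274, minus strand) matched exon 3 of Rpl12 (chr2:32962575-32962634, plus strand), at bases 113 to 172 of its coding sequence, with 9 differences. That of Gm8019 (chrX:137099949-137100008, plus strand) matched exon 6 of Rps7 (chr12:28631640-28631699, minus strand), at bases 432 to 491 of its coding sequence, with 7 differences.
Gm11814: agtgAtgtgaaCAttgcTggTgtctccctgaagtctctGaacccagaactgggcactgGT
Ldha: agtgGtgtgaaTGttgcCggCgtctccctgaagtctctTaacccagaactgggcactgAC
Rpl12-ps2: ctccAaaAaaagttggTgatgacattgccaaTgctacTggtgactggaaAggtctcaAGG
Rpl12: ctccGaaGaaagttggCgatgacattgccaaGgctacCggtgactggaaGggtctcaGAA
Gm8019: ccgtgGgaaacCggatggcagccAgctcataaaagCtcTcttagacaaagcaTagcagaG
Rps7: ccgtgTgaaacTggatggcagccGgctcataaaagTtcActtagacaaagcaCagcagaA

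In MS-5 only the 154 pseudogenes together held 106.5 estimated counts in MO1, 290.4 in MO2 and 122.8 in MO3. In co-culture they held 11727.4 in MC1, 56941.2 in MC2 and 9624.0 in MC3. As a share of the library these sums were 0.000392%, 0.00107% and 0.000512% for MO1, MO2 and MO3, and 0.0329%, 0.217% and 0.0327% for MC1, MC2 and MC3. The lowest co-culture share was 30.5 times the highest MS-5 only share, and the share in MC2 was 6.62 times the mean of MC1 and MC3. The rule fixed the gap between the groups, but not the gap between MC2 and the rest.

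All processed pseudogenes together held 2.87%, 1.84% and 2.68% of the counts in the MS-5 only libraries and 3.14%, 3.78% and 2.13% in co-culture, so that the groups overlapped. Of those counts the 154 took 0.0137%, 0.0583% and 0.0191% in MO1, MO2 and MO3, and 1.05%, 5.74% and 1.53% in MC1, MC2 and MC3. They were therefore a small part of the pseudogene signal in every library.

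Within MS-5 only the few counts were spread over many of the pseudogenes. MO1 listed 86 of the 154 at 0, MO2 listed 37 and MO3 listed 84, and 15 had no count in any of these libraries. MO2 had the highest count of the group for 88 of them. The median level was 0 CPM in MO1 and MO3 and 0.0637 CPM in MO2, and no member was above 0.363 CPM in any MS-5 only library.

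In co-culture the median level was 1.53 CPM in MC1, 10.1 CPM in MC2 and 1.18 CPM in MC3. The highest level was that of Gm8942 in all 3, at 21.8, 143 and 14.4 CPM. The order of the members was much alike from library to library, with a Pearson correlation of log2 CPM over the 154 of 0.950 between MC1 and MC2, 0.881 between MC1 and MC3 and 0.906 between MC2 and MC3. These correlations describe genes that share a library and a transcript length, and carry no test.

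**Figure D1:**
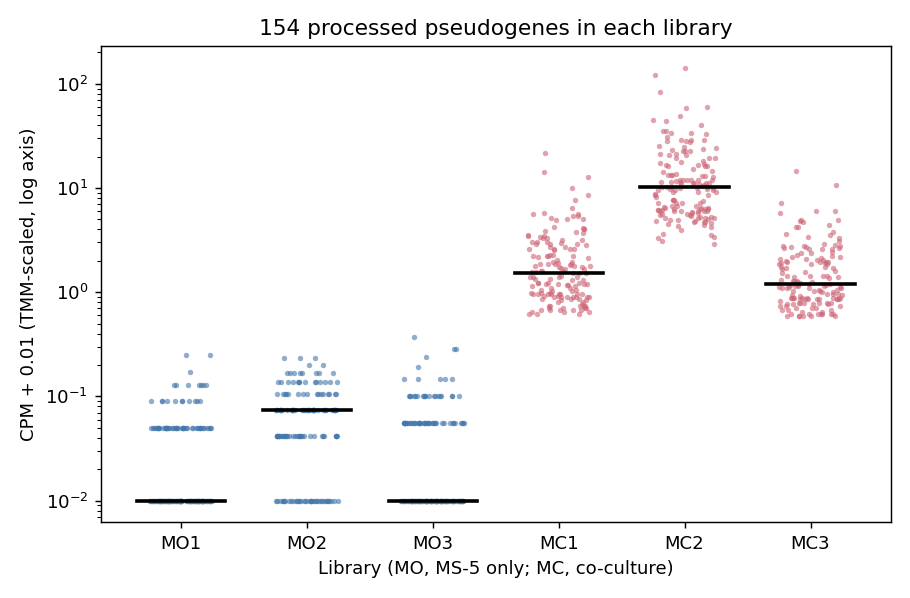
Level of each of the 154 processed pseudogenes in each library, as TMM-scaled CPM plus 0.01 on a log axis. Blue points are MS-5 only libraries, red points are co-culture libraries and black lines are medians. MC2 has a median of 10.1 CPM, against 1.53 in MC1 and 1.18 in MC3.

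All 154 passed edgeR's filter on low counts, which counts of 20 or more in 3 libraries make likely. No call between the groups is given for them, because the counts that would be tested are those that chose them. Other genes were compared by edgeR's quasi-likelihood test of co-culture against MS-5 only over 13221 genes, with a gene called at a Benjamini-Hochberg adjusted p under 0.1, and over all genes tested 3.71% were called higher and 0.666% lower. The first share contains the members, so the shares given below are those of the 13067 genes tested that are not members, of which 2.72% were called higher and 0.673% lower.

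Most of the members with the highest levels were copies of ribosomal protein genes. Gm8942, a copy of Rps24, had 0, 0 and 6 counts in MO1, MO2 and MO3 and 716, 3442 and 496 in MC1, MC2 and MC3. Gm37116, a copy of Rpl39, had no count in the MS-5 only libraries and 421, 2908 and 206 counts in those of co-culture. Rpl12-ps2 had 1, 7 and 0 counts in the MS-5 only libraries and 326, 1414 and 248 in those of co-culture. In each of them MC2 was the highest library, while the gap between the groups is what the rule required.

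Gm8019, a copy of Rps7, had 0, 5 and 3 counts in the MS-5 only libraries and 278, 1456 and 197 in those of co-culture. Gm7312, a copy of Rpl23a, had 3, 3 and 2 counts and 251, 1187 and 166. Gm7434 is a copy of Rpl32, Gm12390 of Rpl6 and AC102240.1 of Rps25, and their counts ran from 0 to 7 in an MS-5 only library and from 151 to 1046 in a co-culture library. The 30 copies of cytosolic ribosomal protein genes held 37.6% of the members' counts in MC1, 40.1% in MC2 and 32.6% in MC3.

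Outside the ribosome, the highest member was Gm11814, a copy of Ldha, with 1, 5 and 2 counts in the MS-5 only libraries and 469, 1999 and 370 in those of co-culture. Gm5210, whose best match was the coding gene Gm10358, had 3, 0 and 5 counts in the MS-5 only libraries and 212, 1080 and 170 in those of co-culture. Gm12482 is a copy of Naca, a chaperone of newly made proteins, and had 2, 5 and 2 counts and then 188, 845 and 129. All 3 had their highest level in MC2.

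Gm12504, a transcribed processed pseudogene of Ptma, which encodes prothymosin alpha, had 2, 2 and 1 counts in the MS-5 only libraries and 163, 847 and 146 in those of co-culture. Gm2962 is a copy of Uqcrb, a subunit of respiratory complex III, and had 3, 2 and 2 counts and then 131, 787 and 107. Cct3-ps1 is a copy of Cct3, a subunit of the chaperonin that folds actin and tubulin, and had 0, 3 and 2 counts and then 168, 681 and 144. The 12 members with the highest mean level held 30.4% of the members' counts in MC1, 31.6% in MC2 and 27.1% in MC3, so that most of the signal was spread over lower members.

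Among those lower members, Gmfg-ps was at 0 in all MS-5 only libraries, and its counts with SKM-1 were 88 in MC1, 352 in MC2 and 58 in MC3. Gm9212 had none in the MS-5 only libraries and 61, 309 and 69 in those of co-culture. A count of 0 allows up to 3 counts in a library, by counting error only. Gm48445, a copy of Rrm2, had 1, 2 and 0 counts in the MS-5 only libraries and 72, 311 and 65 in those of co-culture, and Gm4130, a copy of the RNA-binding protein gene Hnrnpk, had 1, 4 and 1 and then 75, 315 and 81.

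AC108910.1, a copy of the proteasome subunit gene Psmb3, had 0, 0 and 1 counts in the MS-5 only libraries and 63, 322 and 49 in those of co-culture. AC154457.2 is a copy of Ranbp1, which regulates the GTPase Ran, and had 0, 2 and 0 counts and then 62, 285 and 67. Gm19015, a copy of the elongation factor gene Eef1g, had 1, 4 and 0 counts and then 98, 401 and 38. Gm19014, a near-identical copy on the same chromosome, was given the very same counts, so that the reads of these 2 cannot be told apart.

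The limits of the rule fell within a continuum. Just inside the co-culture limit were 5730416F02Rik, Gm19084 and Gm8472, each with 20 counts in MC3, and just inside the MS-5 only limit were Gm5864, Gm10254 and Gm5511, with totals of 9.48, 9.46 and 9.08. Just outside lay Gm10167, Gm9169 and Gm8577, whose lowest co-culture counts were 19.7, 19.4 and 19.3. Gm14892, a copy of Tuba1a, had 3, 6 and 1 counts in MS-5 only, a total that reached 10, and 193, 1056.1 and 138 in co-culture. Gm5778 and Gm5915 missed the limit in the same way, with totals that also reached 10. Where the limits lay therefore decided which genes were counted in.

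The excess in MC2 over the other co-culture libraries was found throughout the set. The ratio of the CPM in MC2 to the mean of MC1 and MC3 had a median of 6.97, quartiles of 6.04 and 8.11, and a range from 3.17 for Gm9139, a copy of Rcc2, to 12.8 for Gm37116. MC2 was the highest library for all 154. MC1 and MC3 were nearer to each other, and which of them was the higher depended on the scaling. The median ratio of MC1 to MC3 was 1.16 in CPM, which uses TMM factors, with MC1 the higher for 112 members, 0.911 as a share of the library's counts, with MC1 the higher for 61, and 0.755 in TPM, with MC1 the higher for 35. The copies of ribosomal protein genes had a median MC2 ratio of 8.30, and those of chaperone genes 6.74.

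The parents had no such excess. Over the 124 parents that could be tested the MC2 ratio had a median of 1.18 and ran from 0.587 to 2.73, and none exceeded 3, against all 154 members. The highest was that of Lcp1, which encodes the leukocyte actin-bundling protein plastin 2 and is also among the leukocyte markers. The parents were at 1372117 counts in all in MC2, 1982554 in MC1 and 1282422 in MC3, and the members' counts came to 4.15%, 0.592% and 0.750% of those sums.

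Some other processed pseudogenes showed the MC2 excess too. Of the 509 with at least 20 counts in each co-culture library, 355 had 10 or more counts over MS-5 only and so were left out by the rule. Those with a total from 10 to under 30 numbered 81, had a median MC2 ratio of 7.32, and 80 of them exceeded 3. With a total from 30 to under 100 the median was 1.54 and 20 of 63 genes exceeded 3. From 100 to under 1000 the median was 1.26 and 13 of 120 exceeded 3, with the highest at 7.67, and from 1000 on it was 1.23 and 2 of 91 exceeded 3. The excess was thus not particular to the members, as nearly all pseudogenes with totals from 10 to under 30 had it. From a total of 30 on, a smaller share exceeded 3.

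The same limits on counts were met by 74 of 21951 protein-coding genes (0.337%), by 1 of 2896 unprocessed pseudogenes, which arise by duplication of DNA, and by 0 of 885 genes of other types. Of the 74 coding genes, 65 had an MC2 ratio over 3, with a median of 5.11. Aldoart2 and Rpl10l, picked out after their values were seen, are coding genes that themselves arose as retrocopies, and their counts over MC1, MC2 and MC3 were 437, 1884 and 334 for Aldoart2 and 80, 393 and 79 for Rpl10l. The 74 also held Laptm5, Irf8, Vav1 and Csf1r, which are among the leukocyte markers described below. Their MC2 ratios were 7.17, 4.46, 4.88 and 4.68. Among coding genes with 20 counts in each co-culture library that did not meet the limits, 77 of 11298 (0.682%) had a ratio over 3.

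**Figure D2:**
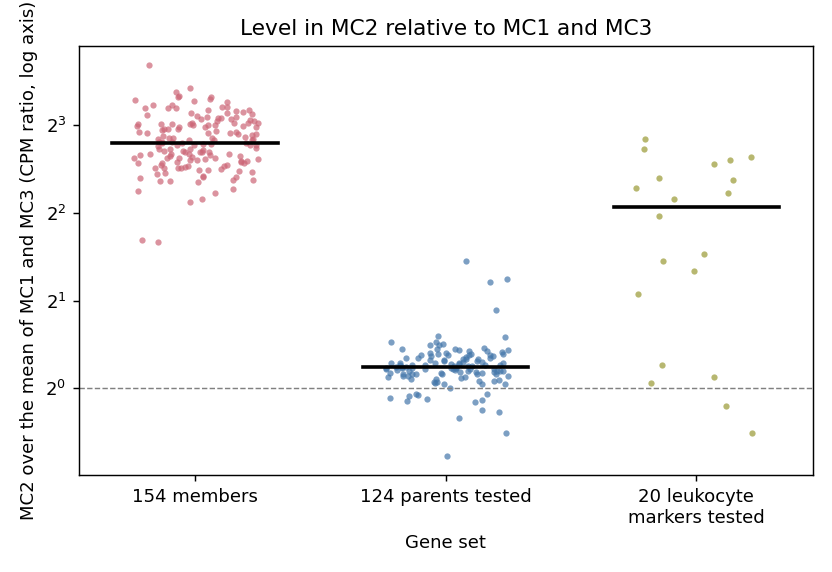
Ratio of the CPM in MC2 to the mean CPM of MC1 and MC3, on a log axis, for the 154 members, the 124 parents tested and the 20 leukocyte markers tested. Points are genes, black lines are medians and the dashed line is a ratio of 1. The medians are 6.97, 1.18 and 4.18, and all members lie above 3.

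Some genes of another cell type moved with these pseudogenes. The 28 leukocyte markers summed to 128, 186 and 145 CPM in MO1, MO2 and MO3 and to 191, 526 and 218.5 CPM in MC1, MC2 and MC3, and 8 to 16 of them had 10 or more counts in an MS-5 only library against 23 or 24 in a co-culture library. An MC2 ratio over 3 was found for 14 of the 28. Coro1a, which encodes coronin 1A, had 9, 17 and 10 counts in the MS-5 only libraries and 425, 1815 and 389 in those of co-culture. Spi1, which encodes the myeloid transcription factor PU.1, had 4, 15 and 8 and then 273, 1357 and 353.

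Irf8 was at 0 in all MS-5 only libraries and had 46, 191 and 74 counts in co-culture, and Ptprc, which encodes CD45, had 2, 10 and 1 and then 113, 410 and 182. Tyrobp had at most 1 count and Fcer1g at most 6 in any library, and Cd33 had at most 14. The list did not move as a whole, since 5 of the markers tested, Cd68, Lsp1, Arhgdib, Cd53 and Lyz2, which had counts in every library, had log2 fold changes from -0.37 to -0.11 and MC2 ratios from 0.702 to 1.20. These 5 were set apart by their fold changes. The other 23 summed to 45.4, 48.3 and 41.4 CPM in MO1, MO2 and MO3 and to 106, 445 and 110 CPM in MC1, MC2 and MC3. Gmfg and Lcp1 are both markers of this list and parents. The SKM-1 cells of the co-culture are human myeloid cells, while the transcripts counted are those of the mouse. The part that leukaemic cells or their RNA have in the counts of the pseudogenes was not tested.

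**Figure D3:**
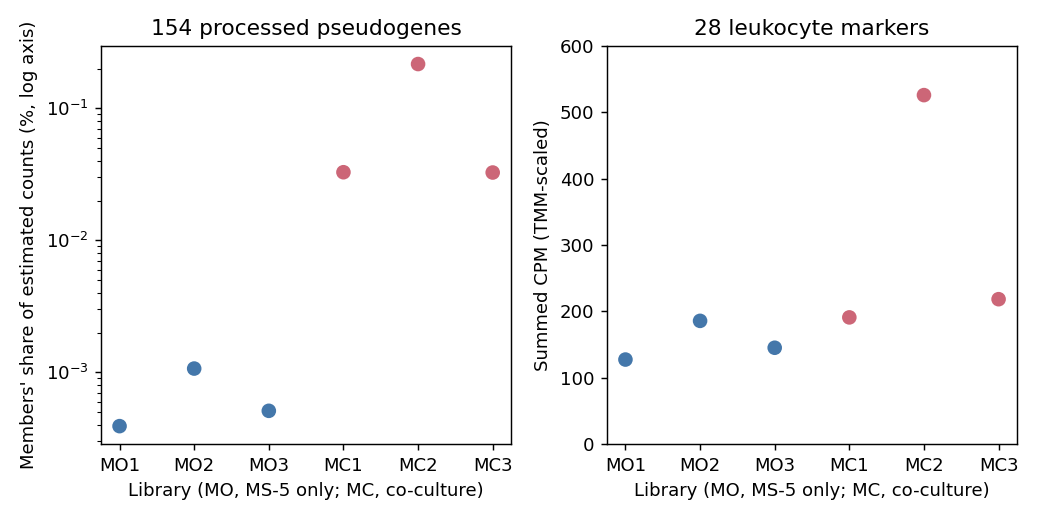
Left, the share of each library's estimated counts held by the 154 processed pseudogenes, in percent on a log axis. Right, the summed CPM of 28 leukocyte markers in each library. Blue points are MS-5 only and red points are co-culture, 1 point a library. MC2 is the highest library in both, at 0.217% and 526 CPM.

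A parent could be named for 148 of the 154, as the coding gene with the best blastn match over at least 50% of the pseudogene transcript. The 6 with no parent by this rule were Gm37348, Gm15937, Gm12124, Gm45791, Matr3-ps2 and Gm19084. The 148 came from 128 parents, 15 of which had more than 1 member. Tra2b, a splicing factor gene, had 4 members among its 6 processed pseudogenes, which were Gm10254, Gm11957, Gm15667 and Gm14639. Ranbp1 had 2 of 2 and Psma2, a proteasome subunit gene, had 2 of 3. Hspd1, which encodes the mitochondrial chaperonin HSP60, had 3 of 27, and Gapdh had 3 of 226, by best match only.

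By family of the parent, ribosomal protein genes gave the most members, 30, but they also have 2207 processed pseudogenes in all, so that the share was 1.36%, near the 1.50% of all processed pseudogenes. Chaperones gave 12 of 220 (5.45%), proteasome and ubiquitin genes 7 of 169 (4.14%), cytoskeleton genes 6 of 149 (4.03%) and cell cycle and replication genes 3 of 78 (3.85%). Small GTPases and their regulators gave 3 of 79, and genes of mitochondrial respiration and ATP synthase 7 of 238. Glycolysis gave 6 of 333 (1.80%), chromatin proteins 4 of 313 (1.28%), and pseudogenes with no parent 6 of 1356 (0.442%). Families were formed from the parent's symbol, so that Gm10358, the best match of 140 pseudogenes, and Gm3839, that of 9, fell outside them. Their coding sequences have 334 codons, as that of Gapdh has, so that the glycolysis share may leave out copies of Gapdh. The family shares were not tested against each other, as several members share a parent.

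**Figure D4:**
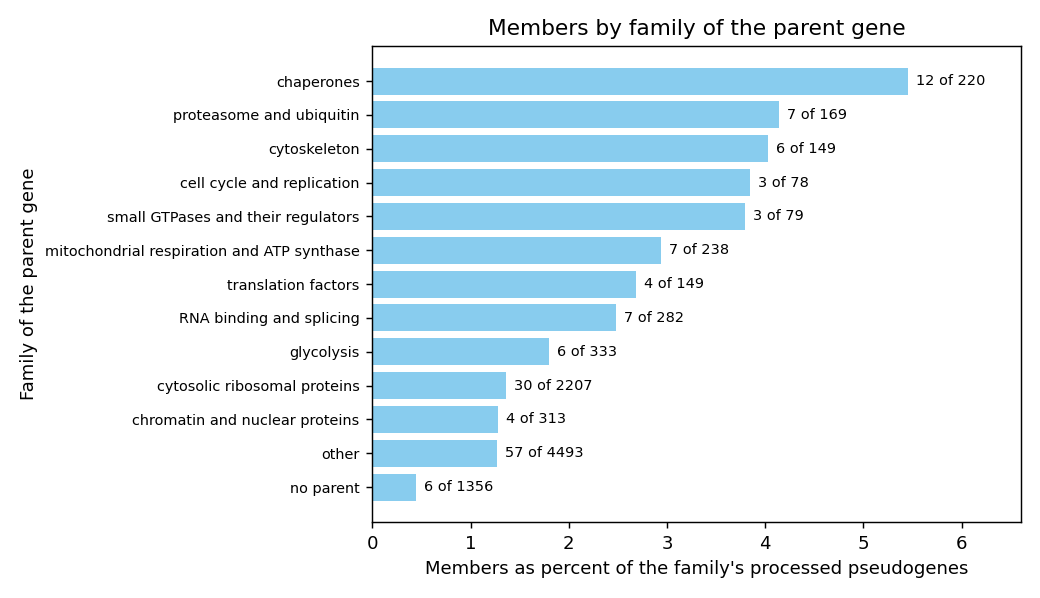
Members as a percent of all processed pseudogenes whose parent belongs to the family by its symbol, for families with 2 or more members. Numbers stand beside each bar. Chaperones have the highest share, 12 of 220, while ribosomal protein genes, with the most members, are at 30 of 2207.

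In sequence the members were close to their parents. The median identity in the aligned part was 92.0%, against 90.3% for the processed pseudogenes that are not members, and the median transcript length was 701 bases against 535. Because reads are assigned by short words, the share of a transcript's 31-base words that occur in no other transcript was computed, and its median was 78.9% for members and 86.1% for the others. For the 2132 other copies of the members' own parents the median identity was 90.1%, and the median share of own words was 74.25%, below that of the members. These differences in sequence were not tested. How well each parent is conserved between mouse and other species was not analysed here.

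The members ranged widely in how far they can be told from their parents. Gm9212 was 87.9% identical to Tuba1c over the aligned part and 95.6% of its words were its own, while Gmfg-ps was 99.3% identical to Gmfg and 20.2% of its words were its own. Gm8942 and Rps24 were 97.5% identical and 22.7% of the copy's words were its own. Fewer than 5% of the words were their own in 6 members, Gm4202, Gm19014, Gm19015, Gm8137, Gm27023 and Rpl30-ps9, so that their counts rest on how Kallisto divided shared reads and are uncertain. Gm4202, a copy of Ywhaz, also had the lowest ratio of MC1 to MC3, 0.171, with 34 counts in MC1, 435 in MC2 and 208 in MC3.

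Most members could not encode the protein of their parent in full. Against the parent's reading frame, 94 of the 148 held an in-frame stop, 116 held a gap that shifts the frame, and 128 held either. Of the 20 with neither, 10 aligned over at least 95% of the parent's codons: BC085271, Gm10254, Gm12906, Gm13182, Gm2962, Gm7308, Gm8137, Gmfg-ps, Rpl30-ps9 and Rps6-ps1. Whether any of them is translated was not measured. As annotated, 141 members had 1 exon and 13 had 2 or 3.

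The members lay on 20 chromosomes, and 104 were between genes. A further 24 lay in an intron of a gene on the opposite strand and 20 in an intron of a gene on the same strand. Of the latter, 11 had a host gene that could be tested and 1 of those hosts, Ago4, was called higher, as 2.72% of the genes that are not members were. Overlap with an exon of another gene was found for 6, Gm37348, Gm15937, Gm48810, Gm5320, Gm5388 and Gm5206, whose reads may be shared with the overlapping gene. Chromosome X held 19 of its 949 processed pseudogenes (2.00%) and chromosome 4 held 18 of 589 (3.06%).

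To ask whether the parents changed with their copies, the parents' own counts, which the rule did not use, were put to the same edgeR test. Of 128 parents 124 passed the filter on low counts, and Gmfg, Gm10273, Gm8797 and Rpl9-ps6 did not. Kallisto divides reads that a copy and its parent share, so that the counts of the closest pairs are not fully separate. EdgeR called 0 parents higher and 2 lower (1.61%) at an adjusted p under 0.1, beside 2.72% and 0.673% of the genes that are not members, and at an unadjusted p under 0.05 there were 5 higher and 9 lower, beside 7.55% and 5.7%. DESeq2's Wald test called 4 higher and 4 lower, beside 5.81% and 2.74%, and limma on log2(TPM + 0.5) called 1 higher and 0 lower, beside 1.65% and 0.13%. The median log2 fold change of the parents was -0.13, with quartiles of -0.28 and -0.02, against -0.02 over all genes tested.

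The parents called lower were Rrm2 and Ccnb1, both genes of dividing cells. Rrm2 encodes a subunit of ribonucleotide reductase, which makes the building blocks of DNA, and had 13872, 11667 and 9724 counts in the MS-5 only libraries and 8144, 6174 and 7224 in those of co-culture. Its level fell from 455 ± 92.1 CPM to 238 ± 24.7 CPM (SD, n = 3 each), a log2 fold change of -0.93 with a standard error of 0.20 and an edgeR adjusted p of 0.0870. Its copy Gm48445 had 3.64 estimated counts in all over the same MS-5 only libraries. Ccnb1 encodes cyclin B1, which drives entry into mitosis, and had 4217, 4671 and 3880 counts in the MS-5 only libraries and 2945, 2649 and 3178 in those of co-culture.

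For Ccnb1 the level fell from 164 ± 14.0 to 97.5 ± 11.0 CPM (SD, n = 3 each), a log2 fold change of -0.75 with a standard error of 0.14 and an edgeR adjusted p of 0.0742. Neither gene was called once any 1 library was left out, in fits with fewer libraries. Their log2 fold changes then ran from -1.07 to -0.74 for Rrm2 and from -0.86 to -0.71 for Ccnb1. Over all the alternatives the adjusted p ran from 0.000363 to 0.300 for Rrm2 and from 6.46e-05 to 0.300 for Ccnb1, and both were lower in all of them.

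A covariate that sets MO2 and MC3 apart, the libraries that stood away from the rest in the principal component plot of the study, gave 9 parents higher and 35 lower. With that covariate 12.9% of the genes that are not members were called higher and 16.6% lower, so that the counts among the 124 parents have to be read against a much larger background. With any 1 library left out, MC2 included, no parent was called in either direction. How many other genes those smaller fits called is not given, so that their zeros cannot be read as a result about the parents.

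Among parents that did not pass, Ldha had 33145, 18762 and 23100 counts in the MS-5 only libraries and 89828, 52553 and 48019 in those of co-culture, which did not overlap. Its log2 fold change was 1.09 with a standard error of 0.40 and an edgeR adjusted p of 0.272, while 5 of the alternatives, which were DESeq2, the 3 limma fits and the covariate for MO2 and MC3, called it higher. Lcp1 had 784, 854 and 553 counts and then 1326, 2611 and 1342, a log2 fold change of 1.17 with a standard error of 0.42 and an edgeR adjusted p of 0.263. Rps7 had 2226, 1072 and 1690 counts and then 3379, 4566 and 1943, which overlapped, and its log2 fold change of 0.81 came to 0.26 without MC2. Tra2b, the parent of 4 members, had 4085, 4512 and 3241 counts and then 3593, 2787 and 3939, a log2 fold change of -0.42 with an edgeR adjusted p of 0.159. Tuba1c, an alpha-tubulin gene and the parent of Gm9212, had 12268, 10563 and 11731 counts and then 10806, 9371 and 9209, a log2 fold change of -0.46 with an edgeR adjusted p of 0.472. With the covariate for MO2 and MC3 both passed, Rps7 at an edgeR adjusted p of 0.0516 and Tuba1c at 0.0256.

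No ribosomal parent was called by this test without the covariate. Rps24 had 865 ± 233 CPM in MS-5 only and 819 ± 200.01 CPM in co-culture, Rpl39 had 368 ± 125 and 371 ± 87.9, and Rpl12 had 39.7 ± 4.37 and 39.2 ± 3.87 (SD, n = 3 each). Their log2 fold changes were -0.08, 0.01 and -0.02. In the whole family of cytosolic ribosomal protein genes, 1 of 87 tested was higher and 0 lower, with a median log2 fold change of -0.07, and the 24 parents among them had a median of -0.07. Of 88 genes of mitochondrial respiration and ATP synthase, 2 were higher and 0 lower. The share of the genes that are not members was 2.72% higher and 0.673% lower.

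**Figure D5:**
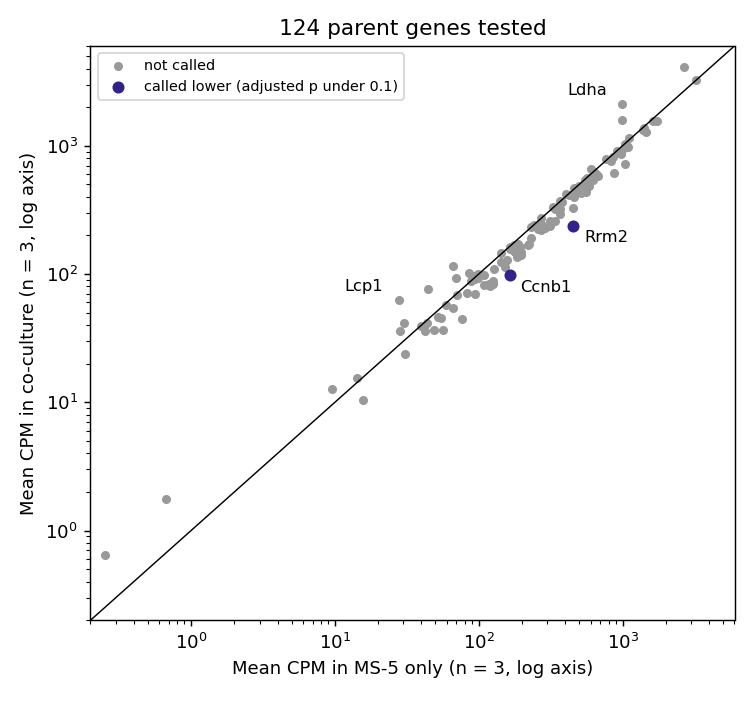
Mean CPM of each of the 124 parent genes tested in MS-5 only (n = 3) and in co-culture (n = 3), both on log axes, with the line of equal level. Dark points are Rrm2 and Ccnb1, called lower at an edgeR adjusted p under 0.1, and grey points were not called. Most parents lie close to the line.

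Most parents were abundant in both groups. The median level exceeded 10 CPM for 121 of 128 parents in MS-5 only and for 122 in co-culture. Of the 154 members 3 exceeded 10 CPM in MC1, 79 in MC2, 2 in MC3 and 0 in any MS-5 only library. On the TPM scale, which divides by transcript length, a member reached a median of 1.76% of its parent in MC1, 10.6% in MC2 and 2.02% in MC3, over the 146 or 147 members whose parent was above 0. Gm8942 was at 4.05%, 28.0% and 4.52% of Rps24 in MC1, MC2 and MC3, and Gm9212 at 1.08%, 6.25% and 1.31% of Tuba1c.

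In a few cases the copy exceeded the gene named as its parent. In MC2 there were 13 such members, Gm13771, Gm14562, Gm16209, Gm16345, Gm27023, Gm37116, Gm39288, Gm42464, Gm48445, Gm5210, Gm8648, Gmfg-ps and Rpl12-ps2, against 7 in MC1 and 9 in MC3. The parent was at 0 TPM for 2 of those in MC2, 1 in MC1 and 2 in MC3. Some of these best matches were themselves barely counted, so that they may not be the gene that was copied. In MC2, Rpl9-ps6 (best match of Gm14562) and Gm10273 (of Gm16209) had 0 counts. Gm8797 (of Gm8648) had 4, Gm10358 (of Gm5210) 15 and Gm3839 (of Gm27023) 33. Gmfg-ps was at 12.1, 62.8 and 11.7 TPM in MC1, MC2 and MC3, and Gmfg was at 0.852, 0.871 and 2.01 TPM. The parent thus stayed low where its copy was counted, at 0, 0 and 5 counts in the MS-5 only libraries and 12, 7 and 12 in those of co-culture.

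Rpl12-ps2 was at 168%, 1176% and 107% of Rpl12, and Gm37116 at 49.3%, 508% and 38.4% of Rpl39. TPM values of transcripts as short as the 147 bases of Gm37116 depend strongly on the effective length that Kallisto assigns, so that these ratios are less certain than the counts. Rpl12 and Rps18, the parent of Gm39288, were also low beside other ribosomal parents. Their co-culture means were 39.2 and 15.4 CPM, against 819 for Rps24. Whether reads of Rpl12 were given to its 27 processed pseudogenes was not tested.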

How the data were processed

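The authors quantified stranded mRNA reads of 6 libraries with Kallisto 0.43.0 (version per the processing notes) against a mouse GRCm38 cDNA index. They deposited, per transcript, an estimated count, a TPM value, and the transcript's length and effective length in bases. The length served only to match transcripts to the annotation, and the effective length was not used directly. The deposited TPM values correct the estimated counts for effective length and sum to the same total in every library. Of 118489 transcripts 116728 matched GENCODE M21 (GRCm38) in identifier and length. The other 1761, with 0.477% to 0.562% of a library's counts, were left out. Samples were grouped by their labels.

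Estimated counts were summed per gene, which chose the members, and rounded for edgeR 4.0.16 (R 4.3.3, filterByExpr, TMM factors from 0.923 to 1.17, quasi-likelihood test, Benjamini-Hochberg over 13221 genes, threshold 0.1, the level used in the study's results). Standard errors are the log2 fold change over the square root of F. Parents were found with blastn 2.17.0 (word size 16, at least 50% of the copy aligned) and reading frames compared with Biopython 1.88. The test was also run on simulated counts, whose outcome is not given here. At 3 libraries against 3 an exact permutation test cannot go below 0.1 and was not used. Depth was 23978881 to 35694987 estimated counts, so that counts under 10 carry large counting error.

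Named were Gmfg-ps, Gm9212, the 12 members with the highest mean CPM in co-culture, the highest member of each parent family with 2 or more members, the parents of these, parents called, and the 3 genes nearest each limit of the rule; others were named after their values were seen. Members and lists were chosen with earlier results of these data known. Alternatives were RLE factors, library size, DESeq2 1.42.0, limma 3.58.1 on log2(TPM + pseudocount), other filters, a replicate block, a covariate for MO2 and MC3 (apart in the study's principal component plot), each library left out, and other limits. Some results are not reported here.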

Additional observations from a re-analysis of the deposited data

How the results depend on the processing

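The number of members depended on the limits. It was 15 with an MS-5 only total of 0, 235 with a total under 30, 251 with a co-culture minimum of 10, 57 with a minimum of 50, and 248 with both MO2 and MC3 left out, an alternative added after seeing the data. On the TPM scale the members' share was 0.0019%, 0.00490% and 0.00186% in MO1, MO2 and MO3 and 0.189%, 1.34% and 0.197% in MC1, MC2 and MC3 and the median MC2 ratio was 5.32. Parents called higher numbered 9 with the covariate for MO2 and MC3, 4 by DESeq2, and 1, 2 and 1 by limma with pseudocounts of 0.5, 0.1 and 1. Parents called lower numbered 35, 4, and 0, 1 and 0 in these fits, 0 at a threshold of 0.05 and 0 with each library left out (range 0 to 0). The fit with the replicate block called 0 parents lower. Shares of other genes called are not given for the threshold of 0.05, the replicate block or the fits with a library left out. The replicate numbers do not pair the libraries, since same-numbered libraries deviated with correlations of 0.53, -0.29 and -0.52. With 1 library left out, the log2 fold change of Rps24 ran from -0.29 to 0.11 and turned positive without MO1, MO3 or MC3, and that of Rpl12 ran from -0.089 to 0.099 and turned positive without MO1 or MC2. No such value passed the threshold. The cause of these changes was not tested. Depth limits the values of members in MS-5 only, where most had 0 to 3 counts.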
